A study of Mus musculus with 24 samples.

Results

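The proteasome is the cell's main protease for proteins tagged with ubiquitin, and 45 genes of its constitutive form were compared between B lymphomas of mice without and with T cells. The genes were taken by name, as every row of the deposited count table whose symbol starts with Psma to Psmg and a digit. The 3 inducible catalytic subunits of the immunoproteasome, Psmb8, Psmb9 and Psmb10, were left out. This gave 45 of the 11140 genes in the table, and all 45 passed the filter on low counts, which left 11020 genes for testing. By known function 43 of them are subunits, caps, inhibitors or assembly chaperones of the proteasome. The other 2 match by name only: Psmc3ip encodes a partner of the recombinases of meiosis, and Psme2b is a retrocopy of the cap gene Psme2.

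The 11 T cell deficient lymphomas came from mice of genotype Bcl6Tg/+CD3Epsilon-/-, and the 12 T cell sufficient lymphomas from Bcl6Tg/+ mice. Both groups carried the same Bcl6 transgene on the C57BL/6 strain, and in both the RNA was that of B lymphoma cells purified from spleen. The sources used here do not give the promoter of the transgene, the deleted part of Cd3e or the age of the mice. The samples fall into 2 runs, which the labels also call batches, with 5 T cell deficient and 7 T cell sufficient lymphomas in run 1, and 6 T cell deficient and 5 T cell sufficient lymphomas in run 2. A repeat library of T cell sufficient lymphoma 1 from run 2 was not analysed here, and the deposited column of that lymphoma may hold the reads of both of its libraries.

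Library totals ran from 11778681 to 28067820 counts in T cell deficient lymphomas and from 7576034 to 30607005 counts in T cell sufficient lymphomas. The lowest count of any proteasome gene in any library was 84. Cd3e, the gene targeted in the T cell deficient mice, ran from 0.721 to 5.77 CPM in T cell deficient lymphomas and from 0 to 2.46 CPM in T cell sufficient lymphomas, so in purified B cells it did not tell the groups apart. The summed level of 5 B cell markers ran from 2815 to 6298 CPM in T cell deficient lymphomas and from 3945 to 8592 CPM in T cell sufficient lymphomas, and Cd79a, Cd79b and Cd22 were called lower. Of 7 T cell markers 4 had a row, with sums from 3.25 to 33.8 CPM in T cell deficient and from 10.3 to 77.0 CPM in T cell sufficient lymphomas, and none was called. Of 7 markers of monocytes and macrophages 6 had a row, with sums from 68.7 to 299.9 CPM in T cell deficient and from 149 to 1503 CPM in T cell sufficient lymphomas, and Lyz2 and Itgam were called lower. Of the markers of plasma cells 3 of 4 had a row, with sums from 104 to 945 CPM in T cell deficient and from 106 to 1206 CPM in T cell sufficient lymphomas, and Sdc1 was lower (log2 fold change -2.01, edgeR adjusted p = 0.0268). Of 4 stromal markers 2 had a row, Col1a1 and Pecam1, with sums from 13.9 to 145 CPM in T cell deficient and from 19.8 to 250.3 CPM in T cell sufficient lymphomas, and Col1a1, a collagen gene, was lower (log2 fold change -4.96, edgeR adjusted p = 0.000151). The part of these cell types in the results on the proteasome genes was not tested. In T cell sufficient lymphomas 9, 10 and 11, all of run 2, both Xist and Y-linked transcripts were present, Xist above 50 CPM and the Y-linked sum above 10 CPM. The calls and log2 fold changes of the proteasome genes and the whole-table counts are therefore also given without these 3 libraries, where a call, sign or count changed. The other results, among them the subunit ratios, the summed levels and the tests of run and interaction, were not repeated without them. In bulk RNA, fewer cells of a type and less RNA per cell cannot be told apart.

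The proteasome that degrades ubiquitin-tagged proteins is built from a barrel, the 20S core, and a cap, the 19S regulatory particle. The core has outer rings of alpha subunits (Psma genes) that gate the entrance and inner rings of beta subunits (Psmb genes), of which the products of Psmb6, Psmb7 and Psmb5 carry the catalytic sites. In the cap, a ring of ATPases (Psmc genes) unfolds the substrate, and non-ATPase subunits (Psmd genes) bind ubiquitin chains and remove them. Other caps, PA28 (Psme1, Psme2 and Psme3) and PA200 (Psme4), can replace the 19S cap, Psmf1 encodes the inhibitor PI31, and dedicated chaperones (Psmg1 to Psmg4, Psmd5, Psmd9 and Psmd10) assemble the core and the base of the cap. In lymphocytes and in cells exposed to interferon, the inducible subunits Psmb9, Psmb10 and Psmb8 can take the places of Psmb6, Psmb7 and Psmb5, which makes the immunoproteasome.

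Proteasome subunit genes are known to share promoter elements, among them the antioxidant response element, whose core is bound by NFE2L1 and NFE2L2, and sites of ETS factors. RefSeq promoters on GRCm38.p6, 250 bases before to 50 bases after the annotated start, were at hand for 38 of the 45 genes. Windows of 5 genes are shown 5′ to 3′ on the gene's strand as examples. These are the catalytic subunit that was higher without T cells (Psmb6) beside one that was not called (Psmb5), the alternative cap gene Psme4, the ATPase gene Psmc6 and the cap scaffold gene Psmd2. Every called gene whose window held the antioxidant response element core is among them. The called genes Psma1 and Psmd1, whose windows held neither that core nor an ETS match, are not shown. Capitals mark each match, on either strand, to the antioxidant response element core TGACNNNGC and to the ETS motif CCGGAAG.
Psmb6 (chr11:70525107-70525406, plus strand): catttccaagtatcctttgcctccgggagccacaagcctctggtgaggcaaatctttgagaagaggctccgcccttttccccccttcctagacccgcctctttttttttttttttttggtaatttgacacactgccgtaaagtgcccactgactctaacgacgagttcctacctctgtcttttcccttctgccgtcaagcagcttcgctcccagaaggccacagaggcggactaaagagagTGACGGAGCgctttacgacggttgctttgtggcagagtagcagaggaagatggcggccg
Psmb5 (chr14:54617946-54618245, minus strand): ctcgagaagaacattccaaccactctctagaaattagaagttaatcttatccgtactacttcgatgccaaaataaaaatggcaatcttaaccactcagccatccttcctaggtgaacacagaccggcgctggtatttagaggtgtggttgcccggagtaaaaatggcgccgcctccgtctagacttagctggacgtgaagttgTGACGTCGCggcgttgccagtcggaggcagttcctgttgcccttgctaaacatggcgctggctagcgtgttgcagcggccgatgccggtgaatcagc
Psme4 (chr11:30771525-30771824, plus strand): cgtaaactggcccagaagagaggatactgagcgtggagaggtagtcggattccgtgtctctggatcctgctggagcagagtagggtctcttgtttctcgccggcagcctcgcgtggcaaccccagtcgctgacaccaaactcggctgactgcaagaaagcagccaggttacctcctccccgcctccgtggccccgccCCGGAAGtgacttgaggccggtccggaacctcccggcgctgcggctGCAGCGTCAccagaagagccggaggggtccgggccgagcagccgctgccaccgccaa
Psmc6 (chr14:45329574-45329873, plus strand): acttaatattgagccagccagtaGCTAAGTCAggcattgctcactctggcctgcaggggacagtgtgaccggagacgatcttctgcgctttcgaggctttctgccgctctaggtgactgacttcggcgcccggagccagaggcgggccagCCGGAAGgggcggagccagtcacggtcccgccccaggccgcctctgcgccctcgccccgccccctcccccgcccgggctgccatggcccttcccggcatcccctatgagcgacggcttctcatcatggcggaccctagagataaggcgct
Psmd2 (chr16:20651402-20651701, plus strand): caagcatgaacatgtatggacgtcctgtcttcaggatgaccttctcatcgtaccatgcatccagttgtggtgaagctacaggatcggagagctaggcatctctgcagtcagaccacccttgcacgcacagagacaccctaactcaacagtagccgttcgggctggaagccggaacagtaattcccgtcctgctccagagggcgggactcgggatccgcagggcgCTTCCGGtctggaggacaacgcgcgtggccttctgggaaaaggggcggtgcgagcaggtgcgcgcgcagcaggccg
Psmb6 and Psmb5 each held 1 response element core and no ETS match, Psme4 and Psmc6 held 1 of each, and Psmd2 held 1 ETS match. The core began at offset -9 from the start in Psmb6, at -47 in Psmb5, at -7 in Psme4 and at -227 in Psmc6. It was present in 6 of the 38 promoters (15.8%), against 15.1% of the promoters of genes in the count table and 12.5% of all promoters of the same length. The ETS motif was present in 14 of the 38 (36.8%), against 19.8% of the promoters of genes in the count table and 9.12% of all promoters. Among the 8 called genes with a promoter window, 5 held the ETS motif and 3 the response element core, against 9 and 3 of the 30 that were not called. The CCAAT box was present in 34.2% and the E-box CACGTG in 7.89% of the proteasome promoters, against 39.2% and 10.6% of the promoters of genes in the count table. A match describes letters only, and the windows do not show that a factor is bound.

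In T cell deficient lymphomas 9 of the 45 proteasome genes were higher and 0 were lower than in T cell sufficient lymphomas (edgeR quasi-likelihood test with run as a covariate, Benjamini-Hochberg adjusted p under 0.05 over all genes tested). The higher genes were Psmc3, Psmb6, Psmc2, Psme4, Psmd1, Psmc3ip, Psma1, Psmc6 and Psmd2. Over all genes tested, 10.6% were called higher and 11.7% lower. At an unadjusted p under 0.05, Psmb1 and Psmd8 were on the lower side without passing the adjusted threshold, and DESeq2 called Psmb1 lower. On the higher side this held for Psma7, Psmd9, Psmd7, Psmc4, Psme2 and Psmd12, and DESeq2 called Psma7 higher. The share of all genes at the unadjusted threshold was not counted. The changes were small, from 1.17-fold to 1.44-fold among the called genes. The highest value was that of Psmc3ip, which matches by name only, and the next was Psmc3 at 1.40-fold. Without the 2 genes that match by name only, 8 of 43 were higher. Of the 45 genes 37 had a positive log2 fold change and 32 were positive in both runs, while 49.2% of all genes tested were positive. The median log2 fold change was 0.14 over the 45 genes and -0.0064 over all genes tested. In the authors' deposited table the same 9 genes had a false discovery rate under 0.05, all higher, and 0 were lower.

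**Figure D1:**
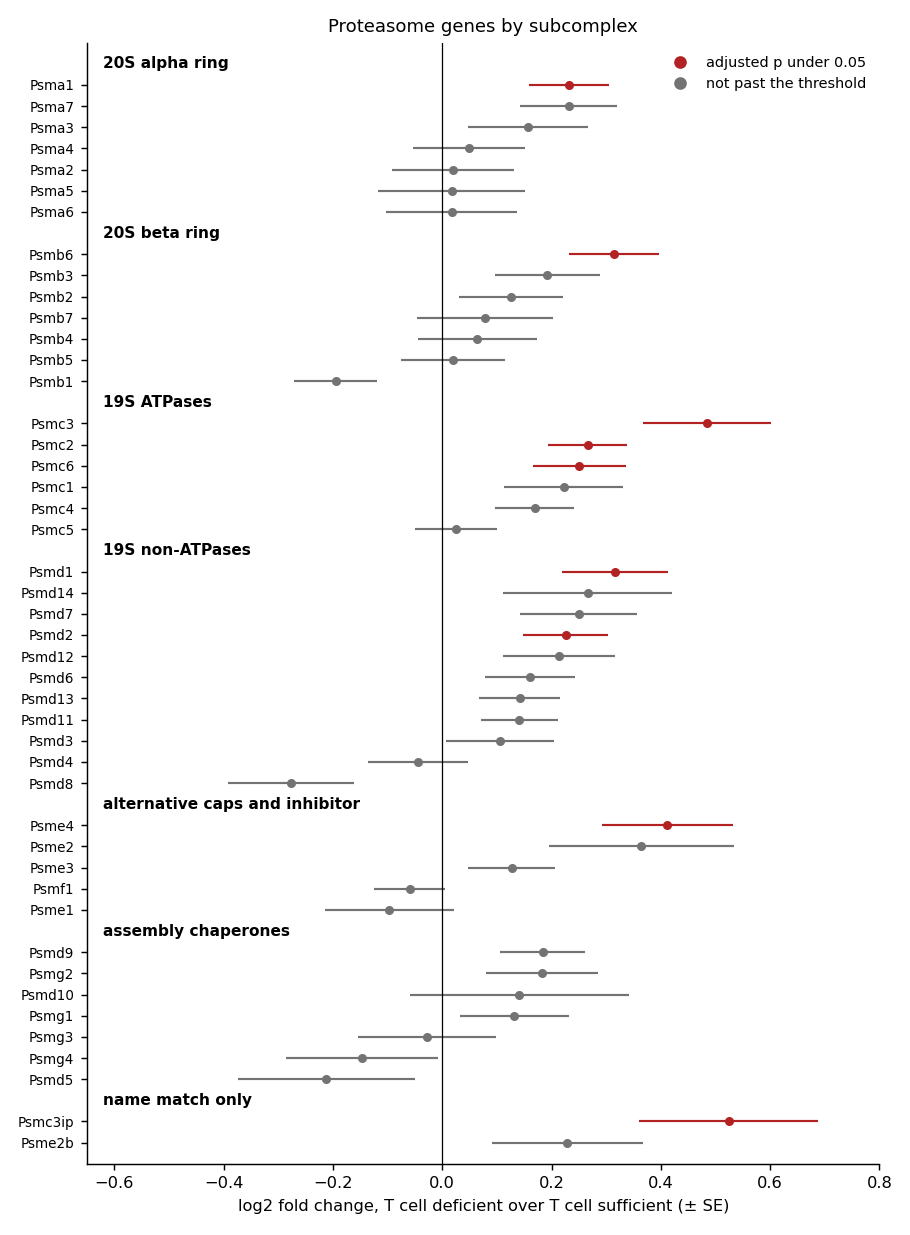
Log2 fold change of T cell deficient over T cell sufficient lymphomas with its standard error for each of the 45 genes, grouped by subcomplex, with run as a covariate. Red marks the 9 genes with an adjusted p under 0.05, which all lie to the right of 0; the 8 genes left of 0 are grey.

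The count of 9 rested on the 2 runs together and on some libraries. Run 1 alone called 0 proteasome genes and 0 genes of the whole table. Run 2 alone called 2 higher, Psmc3 and Psme4, beside 629 of 11051 genes of the whole table. Without T cell sufficient lymphomas 9, 10 and 11 the count was 2, Psmb6 and Psmc3, beside 653 of 11043 genes of the whole table. In these settings the called share of the proteasome genes was not above that of all genes. Without T cell sufficient lymphoma 10 alone it was 5, Psmb6, Psmc2, Psmc3, Psmd1 and Psme4, and without T cell sufficient lymphoma 8 or T cell deficient lymphoma 3, 4 or 5 it was 6. Without T cell deficient lymphoma 6 it was 13, with Psma7, Psmb3, Psmc4 and Psmd7 added. Psmb6, Psmc2, Psmc3, Psmd1 and Psme4 were called in each of the 23 fits that left out 1 library. With counts scaled to the library total only, 17 genes were called higher, and 61% of the called genes of the table were then higher against 47.5% with TMM scaling. No gene of the 45 had a group difference that differed between the runs by the test of the interaction, at an adjusted p under 0.05 or at an unadjusted p under 0.05, where 723 of 11020 genes passed the unadjusted threshold. In neither run did the 2 groups separate fully for any of the 45 genes, while over all genes tested every T cell deficient library was above every T cell sufficient one for 1.22% of genes in run 1 and 4.28% in run 2, and below for 0.599% and 4.12%.

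The ATPase ring of the 19S cap held 3 of the 9 called genes among its 6 subunits, and its median log2 fold change was 0.24. Psmc3 (chr2:91054009-91066369), an ATPase of the ring, had in run 1 a lowest, median and highest level of 195, 225 and 281 CPM in T cell deficient lymphomas, against 128, 191 and 210.4 CPM in T cell sufficient lymphomas. In run 2 its levels were 129, 171 and 177 CPM in T cell deficient and 79.5, 89.5 and 157 CPM in T cell sufficient lymphomas. The groups overlapped in both runs, in run 2 through T cell sufficient lymphoma 11 alone, since the other 4 T cell sufficient libraries were below all 6 T cell deficient ones. The difference was 1.40-fold, a log2 fold change of 0.48 ± 0.12 (SE) with an adjusted p of 0.0061 by edgeR's quasi-likelihood test, the smallest p of the 45 genes. On the log2 scale the change was 0.32 ± 0.13 in the libraries of run 1 and 0.66 ± 0.19 in those of run 2.

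Psmc2 (chr5:21785283-21803787), an ATPase of the same ring, stood in run 1 at 179, 217 and 248 CPM in T cell deficient lymphomas, against 165, 177 and 186 CPM in T cell sufficient lymphomas. Its run 2 levels were 112, 148 and 172 CPM in T cell deficient and 111, 128 and 140 CPM in T cell sufficient lymphomas. The groups overlapped in both runs, and in run 1 only 1 of the 5 T cell deficient libraries was inside the T cell sufficient range. The log2 fold change was 0.27 ± 0.07 (edgeR adjusted p = 0.0125). Psmc6 (chr14:45329788-45349705), the third called ATPase, had 131, 156 and 187 CPM in T cell deficient and 124, 135 and 144 CPM in T cell sufficient lymphomas of run 1. Run 2 gave 93.2, 123 and 158 CPM in T cell deficient and 80.8, 101 and 119 CPM in T cell sufficient lymphomas. Medians were higher without T cells in both runs, with overlapping ranges, and the log2 fold change was 0.25 ± 0.09 (edgeR adjusted p = 0.0386). This call was lost without any 1 of 11 libraries (T cell deficient lymphomas 1, 2, 3, 4, 5, 7 and 10, and T cell sufficient lymphomas 3, 8, 10 and 11), with the highest adjusted p of 0.081 without T cell deficient lymphoma 3. The ATPase genes Psmc1, Psmc4 and Psmc5 had log2 fold changes of 0.22, 0.17 and 0.025 and did not pass the threshold.

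Of the 11 non-ATPase subunits of the cap, 2 were higher, against 10.6% of all genes tested. The other 9 were not called, and the median log2 fold change was 0.16. Psmd1 (chr1:86064387-86139151), which encodes the scaffold at the base of the cap, had 275, 305 and 445 CPM in T cell deficient and 215, 259.5 and 345 CPM in T cell sufficient lymphomas of run 1. In run 2 the levels were 174, 229 and 266 CPM in T cell deficient and 150, 202 and 206 CPM in T cell sufficient lymphomas. The ranges overlapped, and T cell deficient lymphomas 7 and 9 were far above the other 3 of run 1. The log2 fold change was 0.32 ± 0.10 (edgeR adjusted p = 0.0238). Psmd2 (chr16:20651652-20663414), the other large scaffold of the base, had 346, 365 and 520 CPM in T cell deficient and 301, 346 and 373 CPM in T cell sufficient lymphomas of run 1. Its run 2 levels were 252, 303 and 344 CPM in T cell deficient and 234, 282 and 295 CPM in T cell sufficient lymphomas. Medians were higher without T cells in both runs and the ranges overlapped. Its log2 fold change was 0.23 ± 0.08 (edgeR adjusted p = 0.0409), and the call was lost without any 1 of 12 libraries (T cell deficient lymphomas 1, 2, 3, 4, 5, 7 and 9, and T cell sufficient lymphomas 2, 6, 7, 8 and 10).

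Psmd14, the deubiquitinase of the cap's lid, had a log2 fold change of 0.27 ± 0.15 and was the most spread of the 11, from 178 to 501 CPM in T cell deficient and from 138 to 340 CPM in T cell sufficient lymphomas. The lid subunits Psmd7, Psmd12, Psmd6, Psmd13, Psmd11 and Psmd3 had log2 fold changes between 0.11 and 0.25 and did not pass the threshold. Psmd4, a ubiquitin receptor, had -0.044, and Psmd8, a lid subunit, had the lowest value of the 45 genes at -0.28 ± 0.12 (edgeR adjusted p = 0.0881), called lower without T cell deficient lymphoma 9 or T cell sufficient lymphoma 5. Of the 17 genes of the cap, 5 were higher and 0 lower with a median of 0.21, and of the 14 genes of the core 2 were higher and 0 lower with a median of 0.072. Over all genes tested 10.6% were higher and 11.7% lower, and the difference between cap and core was not tested.

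**Figure D2:**
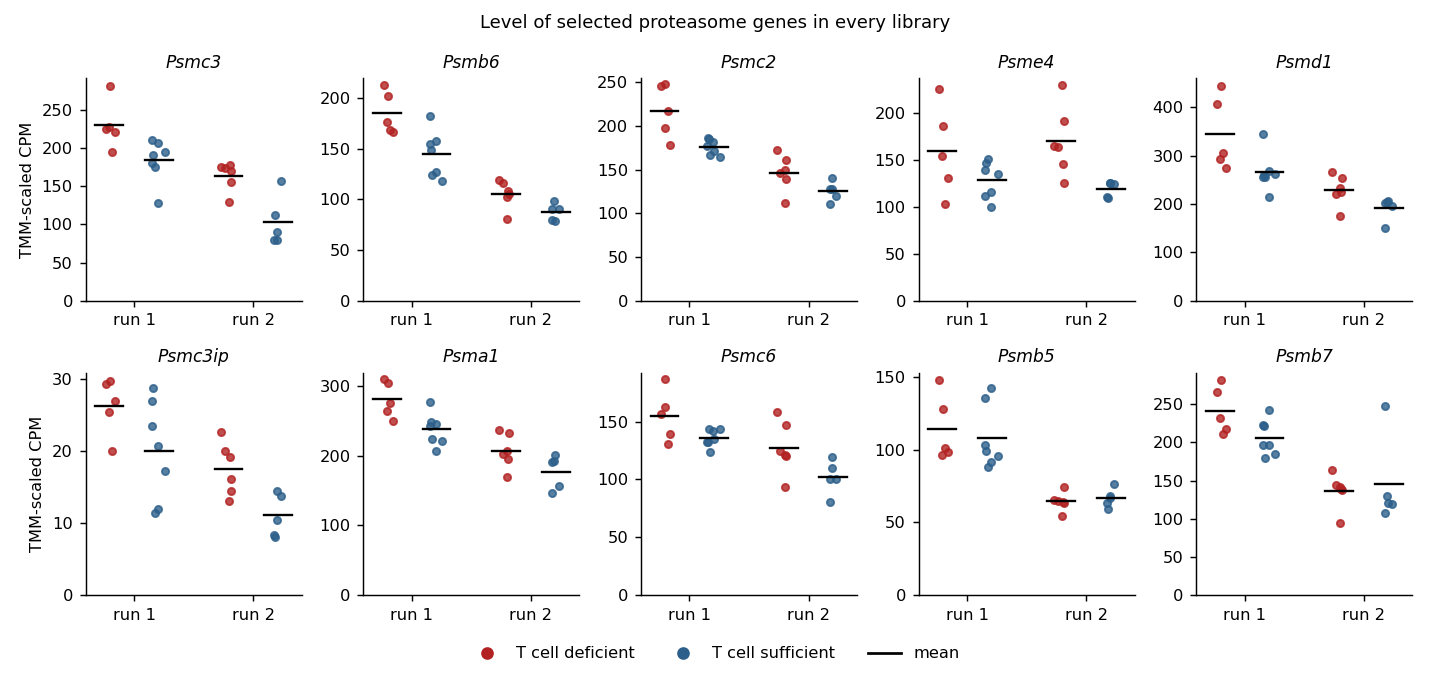
TMM-scaled CPM in every library, T cell deficient lymphomas in red left of T cell sufficient lymphomas in blue within each run, with a bar at the mean, for the 8 genes of smallest p and the catalytic subunits Psmb5 and Psmb7. The red mean is above the blue mean in both runs for the 8 genes, as for Psmc3 with 230 against 184 CPM in run 1, while Psmb5 has 64.5 against 66.8 CPM in run 2; run 2 lies below run 1 in every panel except Psme4.

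The 7 genes of the alpha ring had 1 called member, against 10.6% of all genes tested called higher, and a median log2 fold change of 0.049. Psma1 (chr7:114264606-114276118) had 249, 275 and 310.2 CPM in T cell deficient and 207, 242 and 277 CPM in T cell sufficient lymphomas of run 1. The run 2 values were 169.5, 204 and 237 CPM in T cell deficient and 146, 190.2 and 200.4 CPM in T cell sufficient lymphomas. Its ranges overlapped in both runs, and its log2 fold change was 0.23 ± 0.07 (edgeR adjusted p = 0.0278), with an adjusted p of 0.0593 without T cell deficient lymphoma 3 and no call without T cell deficient lymphoma 4 or 5 or T cell sufficient lymphoma 10. Psma7 had the same log2 fold change of 0.23 with a larger error of 0.09 and an edgeR adjusted p of 0.0638, and it was called without T cell deficient lymphoma 6 or 11 or T cell sufficient lymphoma 4 or 9. Psma3 had 0.16, and Psma4, Psma2, Psma5 and Psma6 lay between 0.017 and 0.049 on the log2 scale.

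In the beta ring, 1 of 7 genes was called, against 10.6% of all genes tested called higher. It was the catalytic subunit Psmb6 (chr11:70525367-70527858), which cuts after acidic residues. Its level in run 1 was 166, 177 and 212 CPM in T cell deficient and 118, 149 and 182 CPM in T cell sufficient lymphomas. In run 2 it was 80.9, 107 and 118.5 CPM in T cell deficient and 78.9, 90.0 and 97.8 CPM in T cell sufficient lymphomas. In run 2 the overlap came from T cell deficient lymphoma 6, the lowest of its group, and the other 5 T cell deficient libraries were above all 5 T cell sufficient ones. The difference was 1.24-fold, a log2 fold change of 0.31 ± 0.08 (edgeR adjusted p = 0.00954), and the call held in all 23 fits that each left out 1 library and without the 3 libraries that held both Xist and Y-linked transcripts.

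The other constitutive catalytic subunits were not called. Psmb5 (chr14:54614119-54618022), the chymotrypsin-like site, had 96.7, 101 and 148 CPM in T cell deficient and 88.0, 99.6 and 143 CPM in T cell sufficient lymphomas of run 1. Levels in run 2 were 54.4, 64.6 and 74.8 CPM in T cell deficient and 59.2, 66.9 and 76.3 CPM in T cell sufficient lymphomas. The ranges nearly coincided, and the log2 fold change was 0.019 ± 0.10. Psmb7 (chr2:38588036-38644087), the trypsin-like site, had 210.4, 232 and 282 CPM in T cell deficient and 179, 196.5 and 242 CPM in T cell sufficient lymphomas of run 1. For run 2 the values were 94.9, 140 and 164 CPM in T cell deficient and 108, 120.3 and 247 CPM in T cell sufficient lymphomas. The value of 247 CPM was that of T cell sufficient lymphoma 10, and the log2 fold change was 0.079 ± 0.12, or 0.21 without that library. Of the non-catalytic beta subunits, Psmb3, Psmb2 and Psmb4 had 0.19, 0.13 and 0.064, and Psmb1 had -0.20 ± 0.08 (edgeR adjusted p = 0.0669) on the log2 scale. Psmb1 was called lower without T cell deficient lymphoma 1 or 9 or T cell sufficient lymphoma 3 or 5.

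Each inducible catalytic subunit competes with 1 constitutive subunit for its place in the assembling core, so the ratio of the paired transcripts was compared within each library. The inducible Psmb9 had a log2 fold change of -0.36 ± 0.11 (edgeR adjusted p = 0.019), lower in T cell deficient lymphomas, while its constitutive counterpart Psmb6 was higher. The ratio of Psmb9 to Psmb6 CPM, which is not scaled to gene length, was 1.59, 1.74 and 2.15 (lowest, median and highest) in T cell deficient and 2.17, 3.14 and 3.70 in T cell sufficient lymphomas of run 1. In run 2 it was 1.55, 1.77 and 2.34 in T cell deficient and 2.51, 2.64 and 4.03 in T cell sufficient lymphomas. The groups did not overlap in either run, but in run 1 the nearest 2 libraries were close, at 2.15 and 2.17. How many other pairs of genes separate in this way was not counted. The mean log2 ratio was 0.87 ± 0.19 in T cell deficient lymphomas and 1.54 ± 0.30 in T cell sufficient lymphomas (SD, n = 11 and 12), a difference of -0.68. A two-sided permutation test within runs gave p = 1e-05, the smallest that its draws can give, and 3e-05 adjusted over the 3 ratios. The pairs are those of the assembling core, but they were chosen with the opposite changes of Psmb9 and Psmb6 known, so this p is no independent support. Within run 1 the difference was -0.68 with an exact permutation p of 0.00253, and within run 2 it was -0.69 with an exact p of 0.00433. For the same reason these 2 p-values are no independent support either. The difference stayed between -0.71 and -0.63 when each library was left out in turn.

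The other 2 ratios gave smaller differences that did not pass the threshold. Psmb8 over Psmb5 had a median of 4.86 in T cell deficient and 6.19 in T cell sufficient lymphomas, a log2 difference of -0.20 (permutation p = 0.0863, 0.129 adjusted over the 3 ratios), and without T cell sufficient lymphoma 7 it was -0.25 with an adjusted permutation p of 0.0432. Psmb10 over Psmb7 had a median of 0.507 in T cell deficient and 0.607 in T cell sufficient lymphomas, a log2 difference of -0.14 (permutation p = 0.548). That difference was -0.31 without T cell sufficient lymphoma 4, whose Psmb10 was the lowest at 35.05 CPM, and -0.051 without T cell sufficient lymphoma 8. T cell sufficient lymphoma 10 had a high Psmb7, which lowers its ratio. In run 2 Psmb8 over Psmb5 was lower in 4 of the 6 T cell deficient libraries than in all 5 T cell sufficient ones, with an exact p of 0.0887 over that run. The marker sums of monocytes and macrophages, cells that also express the inducible subunits, were lower in T cell deficient lymphomas as given above, and their part in the ratio of Psmb9 to Psmb6 was not tested.

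**Figure D3:**
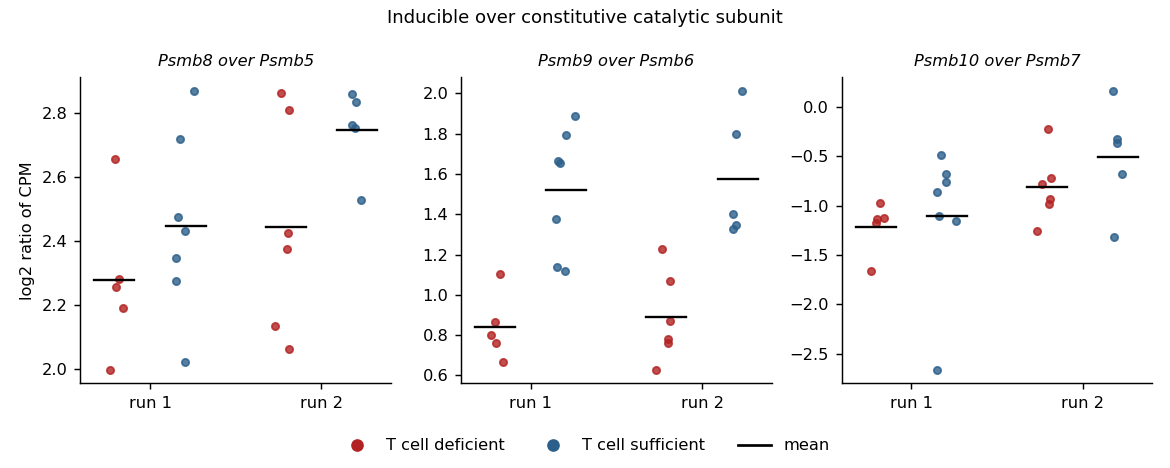
Log2 ratio of the CPM of each inducible catalytic subunit to its constitutive counterpart in every library, T cell deficient in red left of T cell sufficient in blue within each run, with a bar at the mean. For Psmb9 over Psmb6 the red points lie below all blue points within each run (means 0.87 and 1.54 over both runs), and for the other ratios the colours overlap.

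Among the alternative caps and the inhibitor, 1 of 5 genes was called, against 10.6% of all genes tested called higher. Psme4 (chr11:30771726-30880361), which encodes PA200, a nuclear cap known from histone degradation, had 103, 155 and 226 CPM in T cell deficient and 99.8, 135 and 152 CPM in T cell sufficient lymphomas of run 1. The libraries of run 2 had 126, 165 and 231 CPM in T cell deficient and 110.1, 124.5 and 126 CPM in T cell sufficient lymphomas. In run 2 the lowest T cell deficient library and the highest T cell sufficient one were almost equal, and in run 1 the ranges overlapped widely. The difference was 1.33-fold, a log2 fold change of 0.41 ± 0.12 (edgeR adjusted p = 0.0181), and it was the only call that remained in a fit without the run term.

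The genes of PA28, the cap induced by interferon gamma, gave no call. Psme1 had a log2 fold change of -0.097 ± 0.12 and Psme2 of 0.36 ± 0.17 (edgeR adjusted p = 0.122), called higher without T cell sufficient lymphoma 5. Reads of Psme2 cannot be separated with certainty from those of its retrocopy Psme2b, which had 264 ± 50.7 CPM in T cell deficient and 232 ± 73.1 CPM in T cell sufficient lymphomas (SD). The sum of both rows was 336 ± 68.8 CPM in T cell deficient and 292 ± 97.7 CPM in T cell sufficient lymphomas, and Psme2b made up a median of 78.0% and 79.4% of it. The nuclear PA28 gamma gene Psme3 had 0.13 ± 0.08, and Psmf1, the inhibitor, had -0.060 ± 0.07 on the log2 scale.

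None of the 7 assembly chaperones was called by edgeR's quasi-likelihood test, and their log2 fold changes ran from -0.21 to 0.18 with a median of 0.13. Psmd9, Psmg2, Psmd10 and Psmg1 were on the positive side, and Psmg3, Psmg4 and Psmd5 on the negative side. The value of Psmd5 came from T cell sufficient lymphoma 10: it was -0.21 with that library and 0.0061 without it. The smallest p of the 7 chaperones was that of Psmd9 (edgeR unadjusted p = 0.0267, adjusted p = 0.0908). Psmc3ip, which is no proteasome subunit, had 19.99, 26.9 and 29.7 CPM in T cell deficient and 11.4, 20.7 and 28.7 CPM in T cell sufficient lymphomas of run 1. The run 2 levels were 13.0, 17.6 and 22.7 CPM in T cell deficient and 8.12, 10.48 and 14.5 CPM in T cell sufficient lymphomas. The ranges overlapped in both runs, and its log2 fold change of 0.52 ± 0.16 (edgeR adjusted p = 0.026) was the largest of the 45. It was not called without T cell sufficient lymphoma 8 or 10. Leaving it and Psme2b out, 8 of 43 proteasome genes were higher, against 10.6% of all genes tested.

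Summed over each subcomplex, the mean CPM was higher in T cell deficient lymphomas of both runs for the ATPase ring, the non-ATPase subunits, the alpha ring and the alternative caps with the inhibitor. For the beta ring and the chaperones it was higher in run 1 and lower in run 2. For the chaperones the run 2 means were close, 255 CPM in T cell deficient and 262 CPM in T cell sufficient lymphomas. There T cell sufficient lymphoma 10, with its high Psmd5, had a sum of 330 CPM, against 227 to 269 CPM in the others of its group and run. The ATPase sum was 1167 ± 165 CPM in T cell deficient and 998 ± 32.6 CPM in T cell sufficient lymphomas of run 1, and 835 ± 98.9 CPM in T cell deficient and 699 ± 69.8 CPM in T cell sufficient lymphomas of run 2 (SD). In run 1 all 5 T cell deficient libraries were above all 7 T cell sufficient ones, but the nearest 2 were almost equal, at 1039 and 1036 CPM. In run 2 the ATPase sums overlapped, from 663 to 965 CPM in T cell deficient and from 598 to 793 CPM in T cell sufficient lymphomas. The sum of the non-ATPase subunits was 2518 ± 534 CPM in T cell deficient and 2157 ± 107 CPM in T cell sufficient lymphomas of run 1, and 1780 ± 140 CPM in T cell deficient and 1687 ± 151 CPM in T cell sufficient lymphomas of run 2. The alpha ring sum was 1406 ± 223 CPM in T cell deficient and 1269 ± 127 CPM in T cell sufficient lymphomas of run 1, and 883 ± 122 CPM in T cell deficient and 831 ± 97.0 CPM in T cell sufficient lymphomas of run 2. Both overlapped between the groups in each run. The beta ring sum was 1523 ± 251 CPM in T cell deficient and 1415 ± 147 CPM in T cell sufficient lymphomas of run 1, and 892 ± 100.4 CPM in T cell deficient and 910.3 ± 35.5 CPM in T cell sufficient lymphomas of run 2. These sums were not tested, since their genes were chosen with results known.

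**Figure D4:**
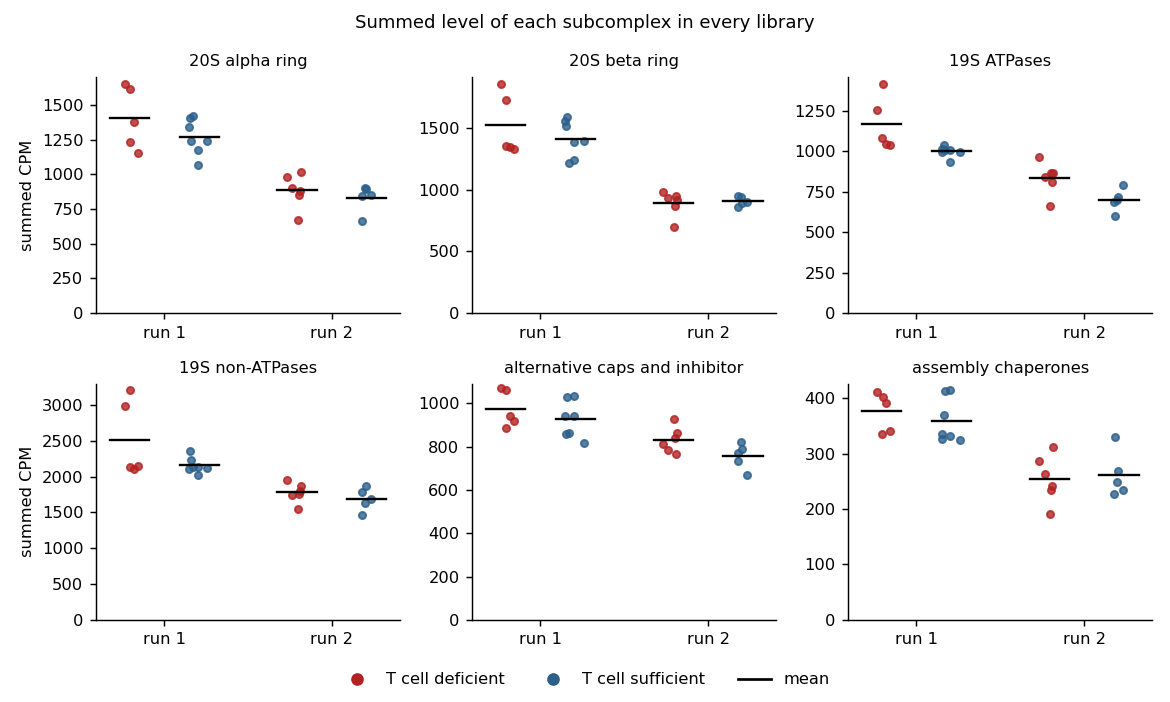
Summed CPM of the genes of each subcomplex in every library, T cell deficient in red left of T cell sufficient in blue within each run, with a bar at the mean. The red mean is above the blue mean in both runs for the ATPase ring (1167 against 998 CPM in run 1, 835 against 699 CPM in run 2), the non-ATPase subunits, the alpha ring and the alternative caps, and run 2 is lower in each panel.

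Scaled to the annotated exon length, the genes of 1 ring were not equally abundant. In T cell deficient lymphomas the alpha ring ran from 18.4 CPM per kilobase for Psma3 to 211 CPM per kilobase for Psma7, and the beta ring from 78.0 for Psmb1 to 229.5 for Psmb4. In T cell sufficient lymphomas the lowest and highest were 17.3 for Psma3 and 198 for Psma6 in the alpha ring, and 90.2 for Psmb3 and 235 for Psmb4 in the beta ring. The ATPases were closer to each other, from 62.7 for Psmc6 to 114 for Psmc5 CPM per kilobase in T cell deficient and from 54.6 to 117 for the same genes in T cell sufficient lymphomas. Neighbours in these orders often differed by less than their SD, as Psmb6 with 177 ± 56.0 and Psmb2 with 177 ± 61.1 CPM per kilobase in T cell deficient lymphomas. The chaperone genes had medians of 38.1 CPM per kilobase in T cell deficient and 35.7 in T cell sufficient lymphomas. The highest level among the caps was that of Psme1, 256 ± 50.2 CPM per kilobase in T cell deficient and 283 ± 66.7 in T cell sufficient lymphomas. Exon length counts every annotated exon, so a gene with long untranslated exons gets a low value.

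The proteasome genes differed more between the runs than between the groups. In run 2, 42 of the 45 genes were lower than in run 1 (edgeR quasi-likelihood test, adjusted p under 0.05, with group as a covariate), while 17.7% of all genes tested were lower and 18.6% higher. The median log2 change was -0.53 over the 45 genes and 0.023 over all genes tested. The strongest was the alpha subunit Psma5 at -0.96, and the 3 exceptions were Psme4 at -0.010, Psmd5 at -0.23 and Psme1 at -0.26. Both groups held libraries of both runs, so the group comparison was made with run as a covariate. Without that term 1 of the 45 genes was called, Psme4, beside 786 of 11020 genes higher over the whole table. The labels do not say how the runs differed.

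Some libraries stood apart across the proteasome genes. Among the 6 T cell deficient lymphomas of run 2, lymphoma 6 had the lowest level for 38 of the 45 genes (84.4%), against 28.5% of all genes tested, and its median deviation from its group was -0.39 on the log2 scale. In the same library Psmd14 was the highest of the 6 at 332 CPM. Among the 5 T cell deficient lymphomas of run 1, lymphomas 7 and 9 had the highest level for 22 and 17 of the genes (48.9% and 37.8%), against 24.7% and 23.2% of all genes tested. Among the 5 T cell sufficient lymphomas of run 2, lymphoma 10 had the lowest level for 25 of the genes, against 23.4% of all genes tested.

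The 45 genes lie on 16 chromosomes, and a few of the largest deviations were shared with their chromosomal neighbours. In T cell sufficient lymphoma 10, Psmd5 was at 172 CPM and Psmb7 at 247 CPM, 1.42 and 1.04 above the median of T cell sufficient lymphomas of run 2 on the log2 scale. Both lie in a stretch of chromosome 2 from Nmt2 to Scai (chr2:3284212-39190734), read over genes with a mean level of at least 5 CPM. Its ends were set where the running median deviation of 21 genes in this library was at least 1 on the log2 scale. In the stretch 197 of 201 genes were above the median of T cell sufficient lymphomas of run 2, by a median of 1.42, a 2.67-fold difference. The ends were set after the values of Psmb7 and Psmd5 were seen, so this share and median follow in part from that choice. The highest median of this stretch in any other library was 0.51. A stretch farther along the chromosome, from Ptprj to Api5, whose ends were chosen after its values were seen, holds Psmc3. There 33 of 37 genes were above the median in the same library, by a median of 0.65 on the log2 scale, and Psmc3 by 0.33. The remaining 471 genes of chromosome 2 with a mean level of at least 5 CPM had a median deviation of 0. In the same library 365 genes of chromosome 12 had a median deviation of -0.33, and the chromosome 12 genes Psmc1, Psma3 and Psma6 were each the lowest of the T cell sufficient lymphomas, at 84.8, 27.7 and 111 CPM. Psmd10, the chaperone gankyrin on chromosome X, was at 86.4 to 98.7 CPM in T cell deficient lymphomas 3, 8 and 9 and at 92.6 and 96.9 CPM in T cell sufficient lymphomas 7 and 3. In the other 18 libraries it was between 27.4 and 59.7 CPM. In the same 5 libraries the median of 207 other X-linked genes was 0.575 to 0.87 above the median of the same group and run, and in the others it was between -0.23 and 0.19. DNA copy number was not measured, and what set these levels was not tested.

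**Figure D5:**
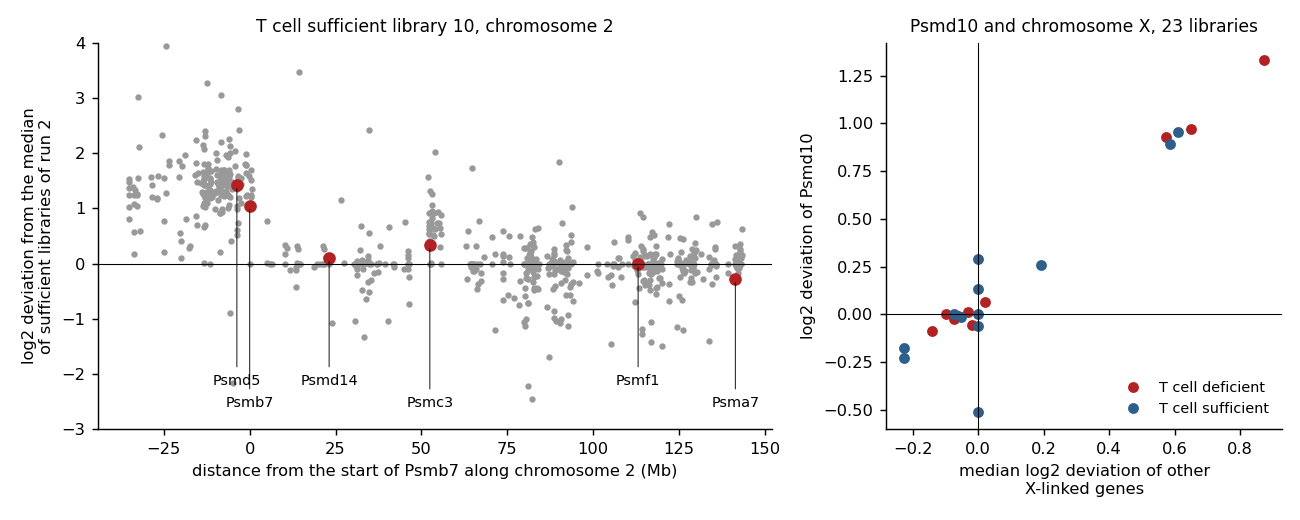
Left, log2 deviation of chromosome 2 genes with a mean level of at least 5 CPM in T cell sufficient lymphoma 10. The deviation is from the median of T cell sufficient libraries of run 2, against the distance in megabases from the start of Psmb7, with the proteasome genes in red. Right, deviation of Psmd10 against the median deviation of 207 other X-linked genes in the 23 libraries, T cell deficient in red and T cell sufficient in blue. The stretch that holds Psmd5 and Psmb7 lies about 1.42 above 0, and 5 libraries stand at the upper right.

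Genes that act next to the proteasome were read from lists of textbook members. Of the 12 measured regulators of proteasome transcription, maturation and import, 1 was higher and 0 lower, against 10.6% and 11.7% of all genes tested. Their median log2 fold change was 0.0075. The higher one was Ecpas, listed as AI314180, a scaffold that ties the cap to the core, with 0.34 ± 0.08 (edgeR adjusted p = 0.00748). Nfe2l1 and Nfe2l2, transcription factors of proteasome genes, had -0.071 ± 0.11 and -0.13 ± 0.15 and were not called, nor was Pomp, the chaperone of core maturation, at -0.067. Akirin2, which brings proteasomes into the nucleus, had 0.12 ± 0.05 (edgeR adjusted p = 0.0821).

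Of the 20 genes of substrate delivery and deubiquitination reported here, 4 were higher and 0 lower, with a median log2 fold change of 0.18 and 18 of 20 positive. Among all genes tested 10.6% were higher, 11.7% lower and 49.2% positive. The calls in the lists outside the proteasome genes were not followed when libraries were left out. The shuttle receptors Ubqln1 (0.34 ± 0.10, edgeR adjusted p = 0.0235) and Rad23b (0.25 ± 0.08, adjusted p = 0.0334), the segregase cofactor Faf1 (0.32 ± 0.09, adjusted p = 0.0158) and the deubiquitinase of the cap Usp14 (0.33 ± 0.12, adjusted p = 0.0498) were higher. Ubb, a polyubiquitin gene, had -0.12 ± 0.08 without a call. The cap's ubiquitin receptor Adrm1 had 0.23 ± 0.10 and the deubiquitinase Uchl5 0.28 ± 0.12, with adjusted p of 0.101 and 0.092. The ATPase Vcp had 0.17 ± 0.10. Among the inducible subunits, Psmb8 and Psmb10 had -0.20 ± 0.10 and -0.16 ± 0.16 and were not called.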

How the data were processed

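RNA of purified splenic B lymphoma cells was made into TruSeq libraries, per the labels' protocols. The authors deposited raw counts per gene for 23 libraries, and beside them CPM, which equal the count over the column total within 5e-04. The authors also deposited log2 fold changes and p-values of their own comparison. Per the submitters' processing notes, mm10, GRCm38 and limma were used. The sources used here name no aligner, counter, annotation or strand setting. Each lymphoma is labelled as a separate sample of its group. The column of T cell sufficient lymphoma 4 was matched by its number.

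The deposited counts were tested with edgeR 4.0.16 in R 4.3.3 (filterByExpr, TMM scaling, robust quasi-likelihood fit with terms for run and group) over 11020 genes, with Benjamini-Hochberg adjustment and a threshold of 0.05. The standard error is the log2 fold change over the square root of F. The script was tested on simulated data. Levels are TMM-scaled CPM, and log2 ratios used a prior count of 2 and 100000 permutations within runs. Positions and exon lengths are from GENCODE M21 on GRCm38, matched for 10644 of 11140 symbols, and promoters from RefSeq. DESeq2 1.42.0 and limma 3.58.1 were alternatives, as were other scalings and filters, single runs, a replicate block and leaving out libraries. Genes with an adjusted p under 0.05 and the catalytic subunits are named with full statistics, and the levels by run are given for those of smallest p, Psmd2 and the catalytic subunits. The genes and all lists were chosen with earlier results of these data known. Of these lists, 1 B cell marker and 1 gene of substrate delivery are left out of the counts and sums and are not reported here. Proteins were not analysed here.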

Additional observations from a re-analysis of the deposited data

Results flagged for a closer look

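Within each group and run, the highest and the lowest library of each of the 45 genes were compared with the gap to their nearest neighbour, which gave 180 gap tests. In 17 of them, in 15 genes, the gap was above the 95% critical value for the group's size. Chance flags about 1 in 20 groups, and genes of the same library are not independent.

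Among T cell deficient lymphomas of run 2, 5 of the values belonged to lymphoma 6. It was low for Psma3 at 32.7 CPM, with the next library at 43.4 CPM, and for Psmb3 at 36.2, Psmc1 at 117 and Psmd13 at 93.2 CPM. The same library was high for the deubiquitinase gene Psmd14 at 332 CPM, against 236 CPM for the next. In T cell deficient lymphoma 3 Psmd10 was high at 86.4 CPM, against 35.9 CPM in the next library of run 2. In run 1 Psme1, a PA28 gene, was high in T cell deficient lymphoma 8 at 392 CPM, against 292 CPM for the next.

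In T cell sufficient lymphoma 10, which lies in run 2, Psmb7 at 247 CPM and Psmd5 at 172 CPM were high, and Psmc4 at 97.5 CPM and Psmd1 at 150 CPM were low. Psmd4 was high in T cell sufficient lymphoma 8 at 147 CPM, and the chaperone gene Psmg4 was low in T cell sufficient lymphoma 11 at 15 CPM. Of the T cell sufficient lymphomas of run 1, lymphoma 4 was high for Psmd1 at 345 CPM and for Psmd11 at 125 CPM, lymphoma 1 for Psma4 at 231 CPM and lymphoma 3 for Psmg4 at 43.6 CPM. Psmd1 was called between the groups, and its adjusted p was 0.0458 without T cell sufficient lymphoma 10.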

How the results depend on the processing

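The count of 9 genes higher held with DESeq2 size factors, upper-quartile scaling, no filter, a filter of 1 CPM in 11 libraries and limma-voom, each with the same 9 genes, and DESeq2 called these 9 and Psma7, with 1 gene lower. It was 17 with the library total only, 1 without the run term, 0 in run 1 alone, 2 in run 2 alone, 2 at an adjusted p under 0.01 and 2 without the 3 libraries that held both Xist and Y-linked transcripts. When each library was left out in turn it ran from 5 to 13 higher and from 0 to 2 lower. Over the whole table, 1163 genes were higher and 1285 lower, against 0 and 0 in run 1 alone, 629 and 730 in run 2 alone, 465 and 562 at an adjusted p under 0.01, 653 and 817 without those 3 libraries, and 828 to 1337 and 1056 to 1446 when each library was left out. Without the run term 786 genes of the whole table were higher and 967 lower, and with the library total only 1608 and 1027. Some of these settings used fewer samples or a stricter threshold, and the cause of the shifts was not tested.

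With the replicate number as a block, and without T cell sufficient lymphoma 12, whose number has no partner, 3 of the 45 genes were higher and 0 lower. These were Psmc2, Psmc3 and Psmc3ip, the last of which is no proteasome subunit. The same fit called 893 of 10988 genes higher over the whole table. The numbers share no animal by the labels, 6 of 11 same-numbered pairs had a correlation of deviations over 0.1 (range -0.277 to 0.29), and 3 T cell deficient libraries correlated best with their own number, so the pairing was not used.

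Of the genes that were not called, some changed sign. With the library total only, Psmd4 had 0.029, Psmf1 0.013 and Psmg3 0.045 on the log2 scale. Psma5 had -0.00053 with limma-voom. Without the run term, Psma2 had -0.075, Psma4 -0.0023, Psma5 -0.14, Psma6 -0.072, Psmb4 -0.035, Psmb5 -0.059 and Psmc5 -0.042. Run 1 alone gave -0.022 for Psma2, -0.11 for Psma5 and 0.0013 for Psmd5, and run 2 alone gave -0.11 for Psma4, -0.044 for Psmb5, -0.082 for Psmb7, 0.039 for Psme1 and 0.087 for Psmg3. Without the 3 libraries named above, Psma2 had -0.0057, Psma5 -0.038, Psma6 -0.00081 and Psmd5 0.0039. Leaving out 1 library gave ranges of -0.056 to 0.059 for Psma2, -0.042 to 0.075 for Psma5, -0.035 to 0.067 for Psma6, -0.032 to 0.056 for Psmb5, -0.026 to 0.051 for Psmc5, -0.024 to 0.21 for Psmd10, -0.25 to 0.0061 for Psmd5 and -0.085 to 0.030 for Psmg3. The ratio of Psmb9 to Psmb6 kept its direction and its side of the threshold in each alternative run for it, from -0.71 to -0.63 with 1 library left out, and with 1 library left out Psmb8 over Psmb5 ran from -0.25 to -0.17 and Psmb10 over Psmb7 from -0.31 to -0.051.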

Other observations

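The proteasome genes varied less between lymphomas of the same group and run than most genes. Their median residual SD was 0.24 on the log2 scale over the 45 genes, against 0.37 over all genes tested and 0.31 over the 6349 genes in the same range of mean expression. This is a description with no test. The inhibitor gene Psmf1 had the smallest residual SD at 0.13, followed by Psmd11 and Psmc4, and Psmd10, Psme2 and Psmc3ip had the largest at 0.47, 0.41 and 0.39. Of the called genes, Psmc2 and Psma1 had 0.16 each.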
